A study of Mus musculus with 2 samples.

Results

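The 10 microRNA (miRNA) genes described here are Mir191, Mir425, Mir652, Mir744, Mir186, Mir151, Mir361, Mir340, Mir342 and Mir331, chosen by name because their hairpins sit in or beside broadly expressed host genes. They are 10 of the 2202 miRNA genes in the deposited tables. Small RNA was sequenced from adrenal glands of 2-month-old female B6CASTF1/J mice, first-generation hybrids obtained from The Jackson Laboratory. The labels give 1 group with 2 replicates, no treatment and no second condition. The tissue labels number different females, but a single donor label is attached to the pair, so their spread may be partly technical. No molecular identifiers are named in the labels, and PCR copies are therefore not independent molecules.

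A miRNA is cut from a hairpin in a longer transcript, first by Drosha in the nucleus and then by Dicer in the cytoplasm, and 1 arm is kept by an Argonaute protein. Bases 2 to 8 of the mature strand, the seed, pair with target mRNAs. Many hairpins lie in introns of protein-coding genes and are made from the same primary transcript, so miRNAs of broadly expressed hosts are found in most tissues. The adrenal gland, a steroid-producing cortex around a catecholamine-producing medulla, is one such tissue. Host mRNA was not measured here, so hosts are compared by annotation only.

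The mature strands of the 5 hairpins on which the results turn are given first, both arms of each because counting was per hairpin and cannot tell the arms apart. They are the 3 abundant hairpins Mir652, Mir744 and Mir191, the close neighbour Mir425, and Mir331, which differed most between the libraries. Capitals mark the seed, and the sequences are RefSeq's for GRCm38.p6.
miR-652-5p: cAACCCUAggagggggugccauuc
miR-652-3p: aAUGGCGCcacuaggguugug
miR-744-5p: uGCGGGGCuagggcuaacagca
miR-744-3p: cUGUUGCCacuaaccucaaccu
miR-191-5p: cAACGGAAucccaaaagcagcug
miR-191-3p: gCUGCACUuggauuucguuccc
miR-425-5p: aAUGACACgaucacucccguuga
miR-425-3p: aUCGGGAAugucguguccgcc
miR-331-5p: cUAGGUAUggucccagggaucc
miR-331-3p: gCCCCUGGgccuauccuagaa

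The RefSeq table held 9 of the 10 hairpins, with 18 mature strands, and these carried 18 different seeds. No seed was shared among these 9 genes. Of the 18 seeds, 2 also occur in another mouse miRNA: that of miR-425-5p in miR-489-3p, and that of miR-331-5p in miR-6973b-5p. Mir489 and Mir6973b had 0 counts in both libraries, which allows up to 1.06 counts per 1000000 (CPM) in replicate 1 and 1.32 CPM in replicate 2. None of the 10 hairpins shares a stretch of 20 bases with another annotated hairpin, against 1084 of the 2202 genes that do. The hairpins are 68 to 100 bases long, and the 9 with a sequence hold 33.8% to 56.0% G and C.

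Gene counts on the strand of the gene totalled 2839732 in replicate 1 and 2280028 in replicate 2. miRNAs known from neuroendocrine cells, Mir375, Mir7b, Mir7-1 and Mir182, were all detected and summed to 43455 and 40948 CPM. Mir375 alone held 39421 and 37780 CPM of these sums. Mir7-1 shares a stretch with Mir7-2, so its counts may lack reads. The miRNAs described in steroidogenic cells (5 of 5 detected) summed to 41013 and 23696 CPM. Mir21a alone held 33612 and 13012 CPM of these sums, and 3 of the 5, Mir320, Mir455 and Mir202, had the higher level in replicate 2. Mir126a, known from endothelium, had 43203 and 59463 CPM and the liver miRNA Mir122 had 3721 and 2358 CPM. The libraries stood farthest apart in 2 other marker lists. Muscle miRNAs summed to 948 CPM in replicate 1 and 4.39 CPM in replicate 2, with Mir133a-1, Mir133a-2 and Mir133b at 0 in both, and erythroid miRNAs summed to 643 and 14488 CPM, with none of 3 at 0. The Mir133 genes share a stretch with each other, as do Mir1a-1 and Mir1a-2. Their counts may therefore lack reads, and a 0 does not show absence. The erythroid sums rest on Mir451a and Mir144, while Mir486, the third, had 65.9 and 58.3 CPM. Mir486 shares a stretch with Mir3107, so its counts may lack reads.

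Annotation placed 8 of the 10 hairpins inside an intron of a protein-coding gene on the same strand, each with no other miRNA gene within 10 kb (GENCODE M21, mm10). Introns are numbered along 1 protein-coding transcript of each host. Mir652 (ENSMUSG00000076011.1; chromosome X, 142739000 to 142739097, plus strand) lies in intron 2 of Tmem164, an intron of 69090 bases. Ammecr1, named as its host when the set was drawn up, lies on the other strand and 112048 bases away. Mir744 (ENSMUSG00000076460.1; chromosome 11, 65734733 to 65734832, minus strand) starts 359 bases into intron 3 of Map2k4, which encodes a kinase of the JNK pathway. Of the 8 intronic hairpins, Mir744 is the closest to a splice site in these transcripts.

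Mir151 (ENSMUSG00000065612.1; chromosome 15, 73254815 to 73254882, minus strand) lies in intron 22 of Ptk2, the gene of focal adhesion kinase. Mir361 (ENSMUSG00000065510.1; chromosome X, 113074824 to 113074893, minus strand) lies in intron 9 of Chm, which encodes a Rab escort protein. Mir342 (ENSMUSG00000065436.1; chromosome 12, 108658620 to 108658718, plus strand) lies in intron 3 of Evl, an actin regulator of the Ena/VASP family. The introns of these 3 hosts are 14556, 8116 and 20189 bases long.

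Mir186 (ENSMUSG00000065431.1; chromosome 3, 157544279 to 157544349, plus strand) lies 614 bases before the end of intron 8 of Zranb2, which encodes a zinc finger protein of splicing. At 1719 bases this is the shortest of the 8 host introns. Mir340 (ENSMUSG00000065417.1; chromosome 11, 50069702 to 50069799, plus strand) lies in intron 2 of Rnf130, a RING finger gene. Mir331 (ENSMUSG00000065607.1; chromosome 10, 93963768 to 93963863, minus strand) lies in intron 2 of 1 Vezt transcript but in the last exon, number 12, of another, within an untranslated region of 8674 bases. Vezt encodes vezatin, a protein of cell junctions, and Mir331 is the 1 intronic hairpin of the 8 that is also exonic in another transcript of its host.

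The remaining pair did not meet the description of single intronic hairpins. Mir191 (ENSMUSG00000105497.1; chromosome 9, 108568319 to 108568392) and Mir425 (ENSMUSG00000065579.1; 108568777 to 108568861) are on the plus strand, 384 bases apart. Both lie in the exon of a single-exon noncoding transcript of 4833445I07Rik, Mir191 also lies in an intron of another of its transcripts, and the gene Dalrd3 as annotated in GENCODE begins 1493 bases after Mir191 and 1024 bases after Mir425. RefSeq's Dalrd3, on the same build, spans 108567484 to 108572773 and contains both hairpins, so the host of the pair depends on the annotation. Their hairpins are shown with both mature arms in capitals, since these are the units that were counted.
Mir191: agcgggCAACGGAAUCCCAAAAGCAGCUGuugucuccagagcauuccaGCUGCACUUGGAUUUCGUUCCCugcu
Mir425: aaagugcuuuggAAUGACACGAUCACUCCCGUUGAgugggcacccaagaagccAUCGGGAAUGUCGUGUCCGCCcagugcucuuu

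**Figure D1:**
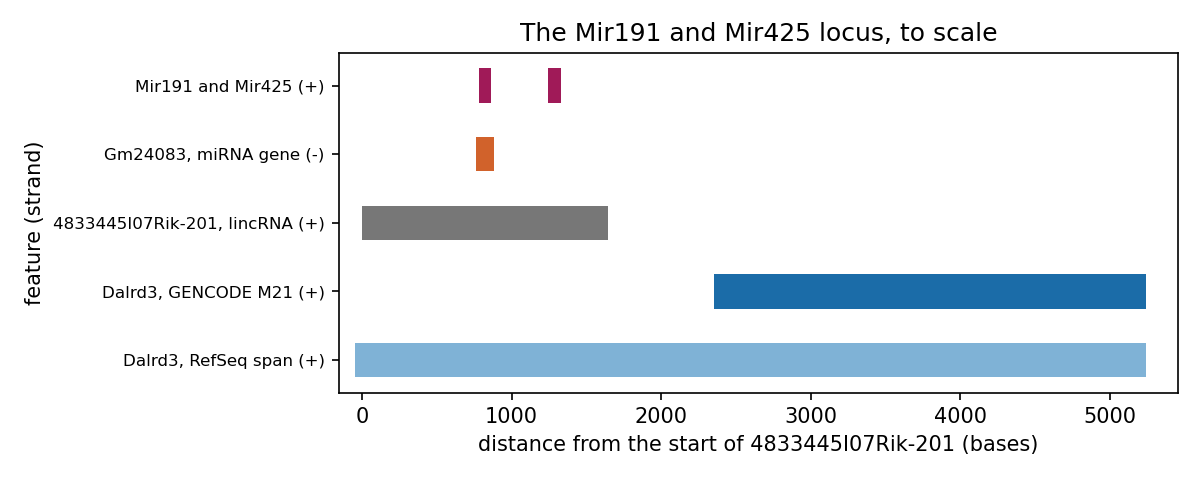
Features of the Mir191 and Mir425 locus, drawn to scale against distance in bases from the start of the noncoding transcript of 4833445I07Rik; bars span each feature and the strand is given in brackets. The 2 hairpins lie 384 bases apart within the noncoding transcript and before the GENCODE start of Dalrd3, and Gm24083 covers Mir191 on the other strand.

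All 10 genes were detected, with at least 10 counts in both libraries, as were 15.5% of all 2202 genes. The 10 were chosen with earlier results of these data known, so their detection is a description and not a test. Together the 10 held 4.79% ± 0.473 of all gene counts (SD, n = 2). The share was 4.45% in replicate 1 (95% Clopper-Pearson interval 4.43 to 4.48) and 5.12% in replicate 2 (5.09 to 5.15). Such intervals cover counting error only, and the libraries differed by more than they allow. The 4 most abundant genes, Mir652, Mir744, Mir151 and Mir191, made up 91.8% of the counts of the 10 in replicate 1 and 91.6% in replicate 2. The 3 least abundant, Mir186, Mir340 and Mir331, made up 0.462% and 0.427%.

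Mir652 was the most abundant of the 10, with 12296 and 17932 CPM in replicates 1 and 2 (mean 15114 ± 3985, SD, n = 2). Mir744 followed at 11668 and 11555 CPM (11611 ± 79.6) and Mir151, whose human counterpart is studied with its host PTK2 in cell migration, at 9399 and 11361 CPM (10380 ± 1387). These 3 kept the same order in both libraries. However, Mir652 exceeded Mir744 by 3502 CPM and Mir744 exceeded Mir151 by 1232 CPM, which is less than the SD of Mir652 and of Mir151, so these neighbours did not differ beyond their spread. In replicate 2 Mir744 and Mir151 were 1.02-fold apart.

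Mir191, a miRNA found in most tissues, followed with 7522 and 6086 CPM in replicates 1 and 2 (6804 ± 1015). It lay below Mir151 in both libraries, by 3576 CPM between the means, which exceeded either SD. The largest gap among the upper genes came next, since Mir361 was at 1801 and 2216 CPM (2008 ± 294), 3.39-fold below Mir191. Mir425 was at 990 and 1253 CPM (1122 ± 186). Each of these steps was larger than the spread between the replicates.

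Mir342, known from blood cells in addition to other tissues, was at 652 and 606 CPM (629 ± 32.9). Between it and Mir186, at 111 and 89.0 CPM (99.98 ± 15.5), the mean levels differed 6.29-fold, the widest step in the order of the 10. Mir340 was at 70.1 and 59.6 CPM (64.9 ± 7.37), again below Mir186 in each library, and the gap of 35.1 CPM between their means exceeded either SD. Mir331 had 24.7 and 70.2 CPM in replicates 1 and 2 (47.4 ± 32.2). Mir340 and Mir331 exchanged places between the libraries, and this was the only change in the order of the 10 genes.

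**Figure D2:**
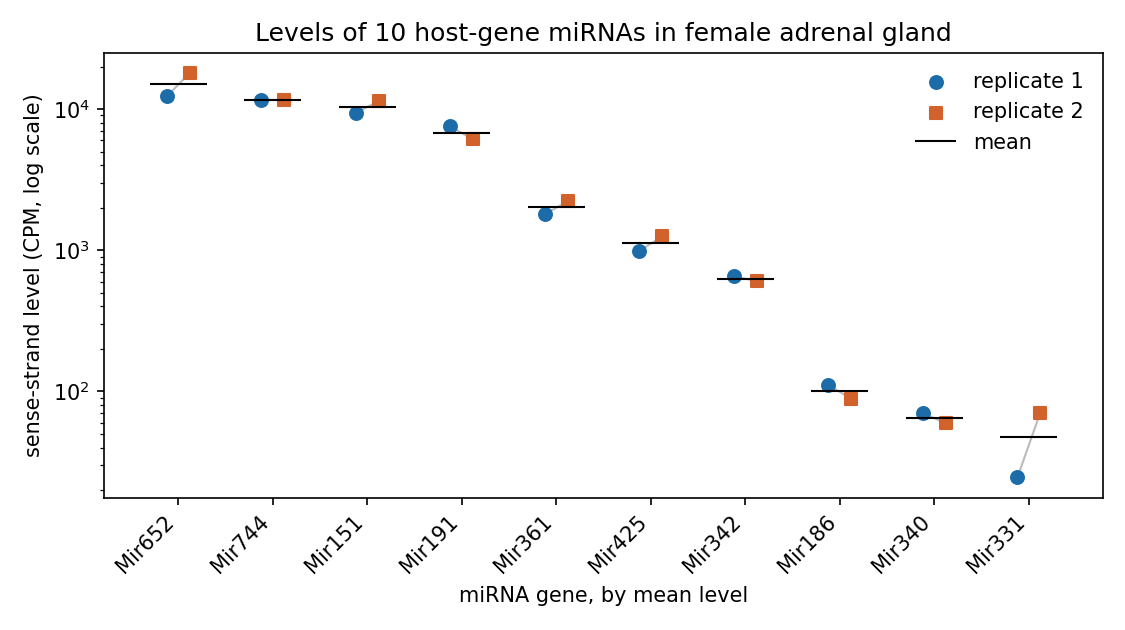
Sense-strand level of each gene in CPM on a log scale, with circles for replicate 1, squares for replicate 2 and a bar at their mean, in order of mean level. The levels run from 15114 CPM for Mir652 to 47.4 CPM for Mir331, which is also the gene whose replicates lie farthest apart by fold.

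Among the 605 miRNA genes that lie in an intron of a protein-coding gene with no other miRNA gene within 10 kb, 90 were detected, and the 605 held 24.2% of gene counts in replicate 1 and 23.0% in replicate 2. The 8 intronic genes described here spread over that ranking. Mir652, Mir744 and Mir151 took places 4, 6 and 7 by mean level. Mir361 and Mir342 took places 16 and 23, and Mir186, Mir340 and Mir331 places 47, 50 and 55. Host introns ranged from 1719 bases for Mir186 to 69090 bases for Mir652, which are genes of low and of high level, but Mir340 and Mir331, of low level too, lie in introns of 18200 and 34534 bases.

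Mir191 kept its reads only where strand was used. With the strand of the gene it had 21360 counts in replicate 1 and 13877 in replicate 2, whereas with counts taken without regard to strand it had 0 and 0. The annotated miRNA gene Gm24083 covers all 74 bases of Mir191 on the other strand, and it had 0 counts on its own strand in both libraries. The unstranded column sets aside 347555 and 354974 reads as ambiguous, and the sense reads of Mir191 equal 6.15% and 3.91% of those numbers.

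In the other 9 genes the unstranded counts equalled the sense counts read for read in both libraries. Mir425, 362 bases from Gm24083, was among them, with 2811 and 2858 counts by either column. Opposite-strand counts were 0 for all 10 genes, also for Mir151, which the gene 1700085D07Rik overlaps on the other strand. An overlapping miRNA gene on the opposite strand is annotated for 64 genes of the tables, which as a group kept 0.00748% and 0.0107% of their sense counts in the unstranded column.

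The replicates were compared gene by gene as the ratio of replicate 1 over replicate 2, with an exact binomial test (two-sided) of each gene's counts against the library totals and Benjamini-Hochberg adjustment over the 369 genes whose mean count reached 10. A gene was called where the adjusted p was under 0.05 and the libraries differed 2-fold or more. The test compares these libraries, not conditions, and covers counting error only. In whole tissue, fewer cells of a type and less RNA per cell cannot be told apart. All 10 genes were tested, and 1 passed, Mir331, while 18.7% of all genes tested passed. Mir331 was higher in replicate 2, the direction in which 8.67% of all genes were called. None of the 10 was called higher in replicate 1, the direction in which 37 of all 369 genes tested were called.

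Mir331 had 70 counts in replicate 1 and 160 in replicate 2, a ratio of 0.351 (95% interval 0.261 to 0.468, adjusted p = 6.87e-14 by the exact binomial test). Its level in replicate 1 was thus lower, by more than the 2-fold limit even at the upper end of the interval. The erythroid list was lower in replicate 1 as well by its sum (643 against 14488 CPM), though its gene Mir486 was not (65.9 against 58.3 CPM). The list's part in the ratio of Mir331 was not tested. With muscle and erythroid genes left out of the library totals, a choice made once the values were known, the ratio of Mir331 was 0.347.

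The other 9 genes lay within 1.5-fold with library totals, though Mir652 was outside that limit with unstranded counts, at a ratio of 0.660. The counts of Mir652 are the same in both columns, so that shift comes only from the smaller unstranded totals. Mir652 had the next lowest ratio, 0.686 (0.676 to 0.696), followed by Mir425 at 0.790 (0.749 to 0.832), Mir361 at 0.812 (0.781 to 0.845) and Mir151 at 0.827 (0.813 to 0.842). These 4 were higher in replicate 2 and stayed below 1 under each scaling tried, though none reached 2-fold. Both X-linked genes of the 10, Mir652 and Mir361, are among them. Of other X-linked genes, Mir98 had a ratio of 1.09 and Mir505 of 0.636. Mir505 rests on 38 and 48 counts (adjusted p = 0.0609, exact binomial test). Mir98 and Mir505 do not stand for all X-linked genes, and a link to the X chromosome was not tested.

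Mir186 had a ratio of 1.25 (1.04 to 1.49), Mir191 of 1.24 (1.21 to 1.26), Mir340 of 1.17 (0.940 to 1.47) and Mir342 of 1.08 (1.00 to 1.16). The ratio of Mir744 was 1.01 (0.994 to 1.03), and its direction changed with the setting, to 0.971 with unstranded counts and to 0.997 with totals without muscle and erythroid genes. Its own counts are the same in each, so only the totals differ. Mir744 had the smallest spread between the replicates, with a coefficient of variation of 0.685%, against 67.9% for Mir331. The white blood cell list, set beside Mir342, held 1331 and 1051 CPM with none of 4 genes at 0. Of these, Mir223 had 133 and 17.5 CPM and was called, Mir150 had a ratio of 1.41, and Mir155 and Mir142 had ratios of 0.930 and 0.983. The list's part in the ratio of Mir342 was not tested.

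By the adjusted p alone, 7 of the 10 genes differed between the libraries beyond counting error with library totals, as did 62.6% of all genes tested. Mir744 (adjusted p = 0.318), Mir340 (0.216) and Mir342 (0.0601) did not pass that limit in the exact binomial test. The count depends on the scaling, since with TMM factors 9 of the 10 passed and 60.2% of all genes, and with median-of-ratios size factors 9 and 60.7%. In those settings Mir340 was the gene that did not pass (adjusted p = 0.0687 and 0.0947, exact binomial test), while Mir744 did at ratios of 1.08 and 1.06 and Mir342 at 1.15 and 1.13. The median size of the log2 ratio was 0.30 over the 10 genes and 0.45 over all 369. The 10 genes are more abundant than most, with a median of 1565 CPM against 101 CPM. At 1000 CPM or more, 6 of 6 lay within 1.5-fold, as did 70.4% of the 81 genes at that level, and from 10 to 100 CPM 2 of 3 did, as did 61.9% of 126. The median size of the log2 ratio at 1000 CPM or more was close, 0.303 for the 6 and 0.317 for the 81. There 0 of the 6 were called, beside 7.41% of the 81, and from 10 to 100 CPM 1 of 3, beside 23.8% of 126.

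**Figure D3:**
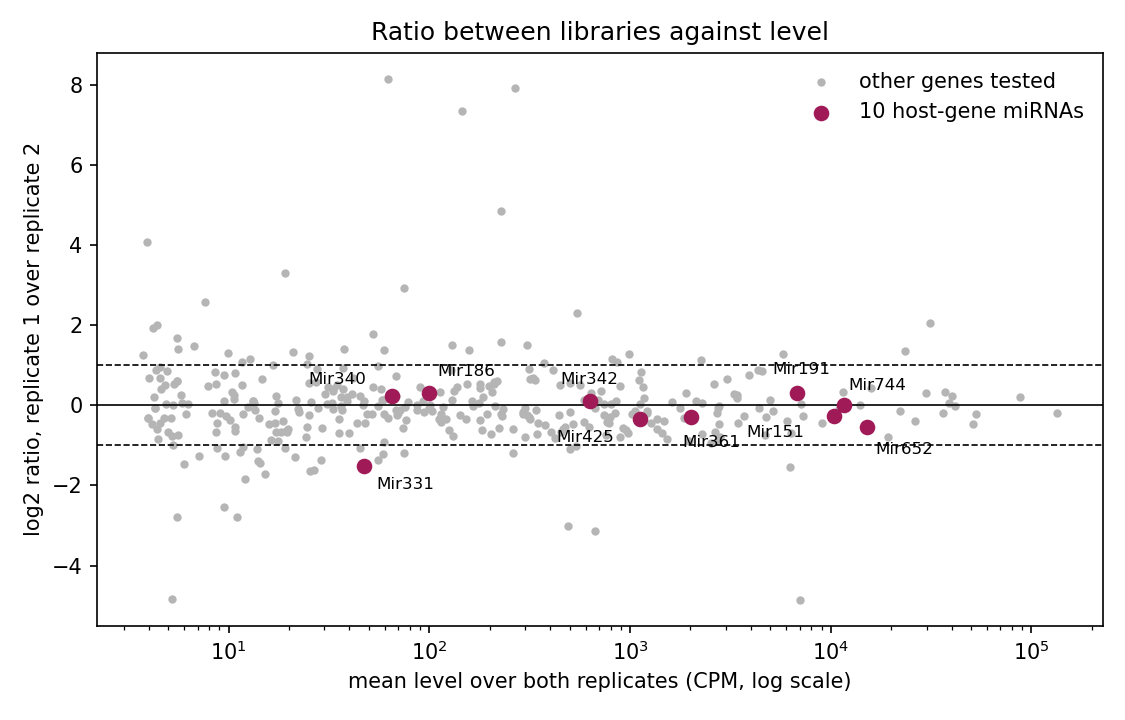
Log2 ratio of replicate 1 over replicate 2 against mean level in CPM on a log scale, for 368 of the 369 genes tested (1 gene at 0 in replicate 2 has no finite ratio); dashed lines mark 2-fold. Mir331, at -1.51, is the only one of the 10 named genes outside the dashed lines.

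Mir191 and Mir425 come from 1 locus, so their counts were compared within each library, which needs no scaling. Mir425 had 0.132 counts for each count of Mir191 in replicate 1 (0.126 to 0.137, 95% interval), while replicate 2 had 0.206 (0.198 to 0.214). The ratio of these values was 0.639, and the 2-by-2 counts differed in Fisher's exact test (two-sided p = 1.45e-54, counting error only). On the log2 scale the genes moved apart by 0.65, with Mir191 higher in replicate 1 (log2 ratio 0.31) and Mir425 higher in replicate 2 (-0.34).

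A difference of that size was common among neighbouring hairpins. Of 59 pairs of neighbours on 1 strand within 10 kb, with a mean count of at least 100 in each gene, 24 differed by as much or more, this pair included, and the median was 0.55. Among the 26 pairs within 1 kb that share no stretch of sequence, which are closest in kind to this pair, 17 differed by as much or more and the median was 0.90. In 27 of the 59 the neighbours had opposite directions. Mir191 was 6.07-fold above Mir425 by mean level, beside a median of 5.18-fold between neighbours, counted over the same 59 pairs, and of 3.49-fold over the 26.

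**Figure D4:**
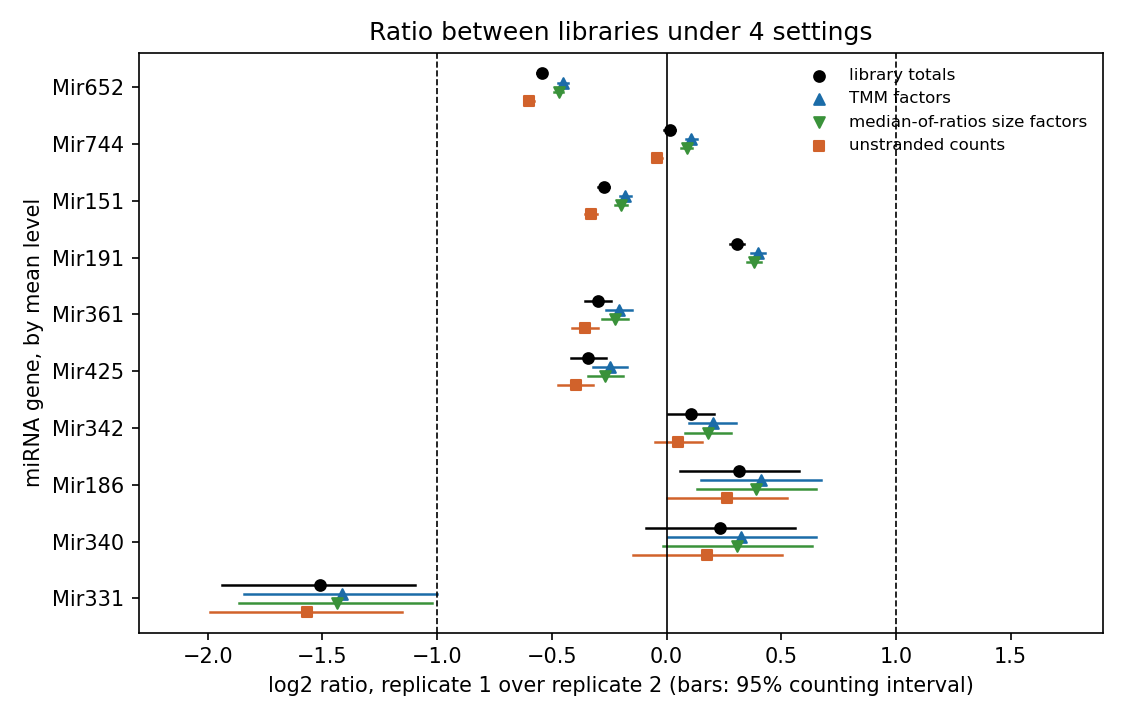
Log2 ratio of replicate 1 over replicate 2 for each gene, with 95% counting intervals, under library totals (circles), TMM factors (upward triangles), median-of-ratios size factors (downward triangles) and unstranded counts (squares, not drawn for Mir191, which has 0). Dashed lines mark 2-fold; Mir744 is the only gene whose points fall on both sides of 0.

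Other miRNAs grouped under broadly expressed host genes, a list of 30 chosen with earlier results of these data known, gave a wider picture. How broadly each host is expressed was not measured. Mir324, Mir671 and Mir345 have no annotated protein-coding intron and overlap exons of Dvl2, Chpf2 and Slc25a47. Mir455 and Mir7-1 also stand in the steroidogenic and neuroendocrine lists above. All 29 found in the tables were detected, while 15.5% of all 2202 genes were. They were led by Mir26b in Ctdsp1 (18095 and 13498 CPM), Mir28a in Lpp (5220 and 6896 CPM) and Mir98 in Huwe1 (5190 and 4740 CPM). Mir28a shares a stretch with Mir28c, so its counts may lack reads. The list summed to 53718 CPM in replicate 1 and 56999 CPM in replicate 2.

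Of these 29 genes, 1 was called higher in replicate 1, Mir140 in Wwp2 (8805 against 3221 counts), and 4 higher in replicate 2, among them Mir185 in Tango2 (386 against 2725 counts) and Mir339 (920 against 1562 counts). The other 24 did not pass. Set beside these counts, 37 of all 369 genes tested were called higher in replicate 1 and 32 (8.67%) higher in replicate 2, so 5 of 29 called is near the 18.7% of all genes. Mir301 in Ska2 and Mir103-2 in Pank2 completed the calls, and Mir103-2 shares a stretch with its paralogs. The median log2 ratio was -0.34 over the list, -0.13 over the 10 genes and -0.07 over all genes tested, and 17 of the 29 lay within 1.5-fold, compared with 9 of the 10 and 61.5% of all 369.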

How the data were processed

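The authors deposited 1 table per sample of read counts per miRNA gene, not normalized, in 3 columns: unstranded, sense and antisense to the gene. Per the deposited sample information, reads were placed on mm10 with GENCODE M21 genes. The aligner and the counting tool are not given in the sources used here. Rows that name no gene were kept out of totals and tests. In the sense column these were unmapped reads (29.8% and 39.7% of 9278190 and 8659511 reads in replicates 1 and 2), reads aligned to several places (28.8% and 25.3%), reads outside genes (10.8% and 8.60%) and 8 and 0 ambiguous reads. All 2202 identifiers matched GENCODE M21.

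The columns have no header, and of the 2 stranded columns the one with the larger gene total was taken as sense. It was scaled to 1000000 per library (CPM); 1 count is worth 0.352 and 0.439 CPM. A count of 0 allows up to 3 counts. Ratios carry exact 95% intervals. A permutation over 2 samples cannot give an exact p below 0.5, and none was run. EdgeR's quasi-likelihood test needs 2 groups. Binomial tests used SciPy 1.17.1 and were tested on simulated data. The simulated counts held counting error only, so they do not show how the test behaves with further spread between libraries. Alternatives were TMM factors (edgeR 4.0.16), median-of-ratios size factors (DESeq2 1.42.0), unstranded counts, other count minimums and leaving out each replicate. Neighbouring levels were called different where the order held in both libraries and the gap of means exceeded the larger SD. Genes named were the 10, miRNA genes overlapping them or within 10 kb, and the 3 most abundant of each list; called genes of a list and genes at 0 or few counts were added after their values were seen. The 10 genes and all lists were chosen with earlier results of these data known.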

Additional observations from a re-analysis of the deposited data

How the results depend on the processing

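No paired analysis was possible because the labels give 1 group. Under each of the 6 alternatives for the ratios, Mir331 was the only one of the 10 genes to pass, and the genes other than Mir744 kept their direction wherever they had a value (Mir191 has none with unstranded counts, nor has Mir425 over Mir191). These alternatives could hardly change which genes passed. The count minimums leave every ratio as it was, and the other settings shift the ratios of these genes by a common factor. The ratio of Mir744 was 0.971 with unstranded counts and 0.997 with totals without muscle and erythroid genes. By the adjusted p alone, 6 of 9 genes passed with unstranded counts, beside 62.8% of all genes tested. Mir744 passed there, while Mir186, Mir342 and Mir340 did not. Raising the minimum mean count to 100 gave 8 of 10, beside 79.5% of all genes tested. With no filter 7 of 10 passed, beside 30.4% of the 739 genes tested then. Leaving muscle and erythroid genes out of the totals gave 7 as well, beside 62.6%. Of all genes tested, 69 of 369 passed the 2-fold rule with library totals and 33 of 234 at a mean count of at least 100. With no filter 76 of 739 passed, and with unstranded counts 59 of 341. TMM factors gave 65 of 369, median-of-ratios size factors 66 and totals without muscle and erythroid genes 68. With unstranded counts, whose totals are smaller, mean levels were 17623 CPM for Mir652, 13489 for Mir744, 12082 for Mir151 and 2338 for Mir361. The remaining means were 1306 CPM for Mir425, 730.2 for Mir342, 116 for Mir186, 75.2 for Mir340, 55.6 for Mir331 and 0 for Mir191. The summed share was 4.11% without Mir191 and 4.45% to 5.12% when either replicate was left out. Counts of 70 to 315 limit Mir331, Mir340 and Mir186.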

Other observations

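Mir28a in Lpp and Mir708 in Tenm4 are known as relatives of Mir151 by mature sequence, and both were present. Mir28a averaged 6058 ± 1185 CPM and Mir708 1476 ± 281 CPM (SD, n = 2), below Mir151 at 10380 ± 1387 CPM. The ratios of replicate 1 over replicate 2 were 0.757 for Mir28a, 0.762 for Mir708 and 0.827 for Mir151, and none passed the 2-fold rule. Mir708 shares a stretch with Gm23134 and Mir28a with Mir28c, so their counts may lack reads. Mir28b and Mir28c, the other listed relatives, had 4 and 5 counts in replicate 1 and 1 and 10 in replicate 2.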
